A study of Homo sapiens with 2 samples.

Results

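The genes described here encode the pore-forming and auxiliary subunits of potassium, voltage-gated calcium and voltage-gated sodium channels. Members were taken by symbol: genes named KCN followed by letters and a closing number, the CACNA1 calcium channel genes, the CACNA2D, CACNB and CACNG calcium channel auxiliary genes, and the SCN genes with an A or B suffix, with each symbol counted once. The rule gave 133 of the 56638 genes in the tables, of which 70 had at least 10 reads summed over both libraries. RNA came from TFK1, a human cholangiocarcinoma (CCA) cell line, in which MBD2, a reader of methylated CpG, was targeted by a short hairpin RNA. The knockdown library, T-shMBD2, was compared with T-shNC, a library of the same cells with a negative control hairpin, and the comparison asks which transcripts differ when MBD2 is depleted. By the study's methods knockdown constructs were delivered by lentivirus and positive cells were selected with a drug, so each library is a selected population of 1 line, and T-shMBD2 stands for a knockdown, not for a deletion of the gene. Each condition had 1 library, so no difference below has a replicate check, no p-value is given, and all intervals are exact 95% intervals of how a gene's reads split between the libraries, which cover counting error only.

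Potassium channels set the resting potential of a cell and repolarise it. In bile duct epithelium, potassium leaving the cell keeps up the electrical driving force for the secretion of chloride and bicarbonate. Voltage-gated calcium channels consist of an alpha1 pore with alpha2delta, beta and, in some channels, gamma subunits, whereas sodium channels have an alpha pore and beta subunits. Many of these genes are best known from neurons or muscle, which were not sequenced here, while some are known from epithelia.

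The libraries held 14728814 counts (T-shMBD2) and 14467406 counts (T-shNC), and the channel genes took 0.053% and 0.0587% of them. MBD2 itself had 365 counts in T-shMBD2 and 1013 in T-shNC, a log2 fold change (log2FC, T-shMBD2 over T-shNC) of -1.48 with an interval from -1.66 to -1.31, in the direction of the label. Of 8 biliary epithelial markers, all 8 had at least 10 reads, with KRT8 highest at 3006 and 3890 TPM (a level scaled to transcript length and library size) and KRT19 low at 15.0 and 9.04 TPM. Neuronal markers were also read, with 4 of 8 at 10 reads or more. SNAP25 had 538 and 511 counts, RBFOX3 had 334 and 444, SYT1 had 331 and 400 and NEFL had 174 and 243, whereas STMN2 and GAP43 had 0 in both libraries. The list summed to 80.6 TPM in T-shMBD2 and 92.2 TPM in T-shNC. Striated muscle markers summed to 1.13 and 1.21 TPM, fibroblast markers to 0.462 and 0.671 TPM and endothelial markers to 0 and 0.0436 TPM. Leukocyte markers summed to 20.2 and 14.3 TPM. Most of this leukocyte sum came from CD14, with 152 counts in T-shMBD2 and 126 in T-shNC, or 14.1 and 11.99 TPM. PTPRC and TYROBP had 0 counts in T-shMBD2 and 1 in T-shNC, but LAPTM5 had 29 and 3 counts and CORO1A had 56 and 19. The part of these marker differences in the channel values was not tested. In a bulk library, fewer cells with a transcript and less of it per cell cannot be told apart.

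Start-site sequences are shown for 5 members, because MBD2 binds methylated CpG. They were picked with their values known: among genes with at least 100 reads, CACNA1I had the highest log2FC, KCNS3 and CACNG6 the lowest, and KCNMA1 the highest of the potassium channels, while KCNN4 had the highest TPM. Each run is the 250 bases before an annotated start in RefSeq (GRCh38.p14), written 5′ to 3′ on the gene's strand, with every CG in capitals. The pair of letters CG, which reads alike on both strands, was found in 93.9% of all 35116 windows of this length, with a median of 11 per window and quartiles of 3 and 23. The CACNA1I window (chr22:39570503-39570752, plus strand) held 3, and the CACNG6 window (chr19:53991387-53991636, plus strand) held 21. KCNS3 had a pair of annotated starts, with 14 in the first window (chr2:17877597-17877846, plus strand) and 38 in the second (chr2:17878417-17878666, plus strand). KCNMA1 also had a pair, with 46 in the window shown (chr10:77637809-77638058, minus strand) and 1 in the other (chr10:77350762-77351011, minus strand). The KCNN4 window (chr19:43780974-43781223, minus strand) held 5.
CACNA1I: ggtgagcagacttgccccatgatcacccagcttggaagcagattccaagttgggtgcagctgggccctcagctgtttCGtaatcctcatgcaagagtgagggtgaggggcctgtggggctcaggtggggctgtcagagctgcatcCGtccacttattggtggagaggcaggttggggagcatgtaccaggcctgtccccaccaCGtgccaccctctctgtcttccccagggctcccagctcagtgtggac
KCNMA1: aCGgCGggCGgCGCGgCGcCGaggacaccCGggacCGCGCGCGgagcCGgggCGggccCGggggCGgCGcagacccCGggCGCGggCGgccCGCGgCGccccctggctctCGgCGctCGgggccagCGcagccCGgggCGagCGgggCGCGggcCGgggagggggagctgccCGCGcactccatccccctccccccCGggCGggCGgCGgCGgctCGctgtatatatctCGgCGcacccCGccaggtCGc
KCNS3, first start: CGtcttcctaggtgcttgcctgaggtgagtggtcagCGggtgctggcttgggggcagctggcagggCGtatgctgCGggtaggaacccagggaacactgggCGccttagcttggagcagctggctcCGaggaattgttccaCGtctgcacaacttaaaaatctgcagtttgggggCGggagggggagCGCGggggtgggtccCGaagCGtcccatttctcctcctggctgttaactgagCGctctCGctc
KCNS3, second start: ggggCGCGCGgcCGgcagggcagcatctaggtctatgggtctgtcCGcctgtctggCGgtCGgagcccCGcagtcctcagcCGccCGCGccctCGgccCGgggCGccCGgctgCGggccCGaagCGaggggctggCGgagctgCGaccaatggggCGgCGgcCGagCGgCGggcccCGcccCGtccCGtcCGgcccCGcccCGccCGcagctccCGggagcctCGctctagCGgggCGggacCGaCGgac
CACNG6: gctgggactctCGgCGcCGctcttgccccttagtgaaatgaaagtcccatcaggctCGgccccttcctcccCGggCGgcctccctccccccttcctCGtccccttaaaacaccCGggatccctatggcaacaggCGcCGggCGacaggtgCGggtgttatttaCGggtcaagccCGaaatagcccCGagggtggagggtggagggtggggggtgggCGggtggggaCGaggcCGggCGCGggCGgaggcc
KCNN4: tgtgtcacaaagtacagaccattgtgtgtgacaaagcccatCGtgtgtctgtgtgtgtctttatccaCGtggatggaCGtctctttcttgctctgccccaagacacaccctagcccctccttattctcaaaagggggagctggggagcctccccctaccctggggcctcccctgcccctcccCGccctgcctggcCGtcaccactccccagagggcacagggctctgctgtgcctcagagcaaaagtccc

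Among the windows shown, the one with the fewest CG and the one with the most belonged to CACNA1I and KCNMA1, both higher in T-shMBD2. The KCNMA1 window not shown held fewer than that of CACNA1I, with 1 CG. Windows were found for 94 of the 133 members, or 70.7%, so CG content was not summarised over the group. DNA methylation and MBD2 binding were not measured in these libraries, and which of the annotated starts was used in TFK1 was not tested.

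Most channel genes were read at low levels. Of the 133, 27 had no read in either library and 36 had between 1 and 9 reads, while 32 had at least 100. Of 18678 protein-coding genes, 72.0% reached 10 reads against 52.6% of the channel genes, 58.9% reached 100 reads against 24.1%, and 66.9% reached 1 TPM in a library against 36.8%. The share with no read was 20.3% for channel genes and 16.8% for protein-coding genes. Among genes with at least 10 reads, the median over both libraries was 1.89 TPM for channel genes and 12.2 TPM for all genes. The KCNA family of Shaker-type channels was almost silent, with 10 and 5 counts over its 8 genes.

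A log2FC above 1 was found for 5 of the 70 channel genes (7.14%), beside a background of 5.48% of the 17545 genes with at least 10 reads. A log2FC below -1 was found for 11 of the 70 (15.7%), beside a background of 5.07%. The higher genes were CACNA1I, CACNA2D3, KCNJ12, KCNN2 and KCNG3, and the lower genes were KCNJ6, SCN3B, KCNS3, KCNT2, CACNG6, CACNA1A, KCNU1, KCNIP2, CACNA2D2, KCNH1 and CACNG4. Low counts alone widen ratios, so the shares were also taken by bins of depth. The upper bin has no upper limit, so depth is not matched within it. Among genes with at least 10 reads, the median was 82.5 summed reads for channel genes and 431 for all genes. With 10 to 99 reads, 4 of 38 channel genes were above 1 (10.5%, background 13.4%) and 7 of 38 were below -1 (18.4%, background 13.7%). With 100 or more reads, 1 of 32 was above 1 (3.13%, background 1.78%) and 4 of 32 were below -1 (12.5%, background 1.06%). The 4 were KCNS3, CACNG6, CACNG4 and CACNA2D2, and the 1 was CACNA1I. Calcium channel auxiliary subunits were 3 of these 4, beside 8 of the 32 channel genes in this bin. CACNA2D2 stood on the limit of the bin, with exactly 100 reads. The gap to the background depends on the scale: on log2 of TPM plus 1, 1.43% of channel genes were above 1 and 2.86% below -1, beside 2.13% and 1.94% of all genes.

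**Figure D1:**
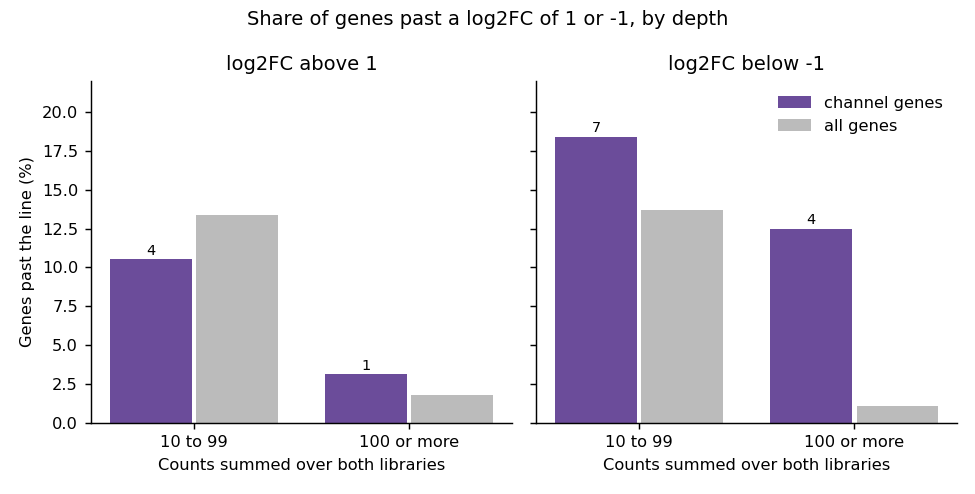
Percent of genes with a log2FC (T-shMBD2 over T-shNC) above 1 (left) or below -1 (right), for genes with 10 to 99 and with 100 or more summed reads. Purple bars are channel genes, with the number of genes above each bar, and grey bars are all genes; below -1 at 100 or more reads, channel genes stand at 12.5% and all genes at 1.06%. Depth is not matched within the bins.

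The interval of the read split lay wholly above 0 for 10 of the 70 channel genes (14.3%, background 19.7%) and wholly below 0 for 16 (22.9%, background 18.4%). The log2FC was positive for 29 and negative for 41, a split that was not taken over all genes. The median log2FC was -0.11 for channel genes and -0.01 for all genes with at least 10 reads, and at 100 or more reads it was -0.11 and 0.00. Summed over all 133 genes, the channels had 7806 counts in T-shMBD2 and 8490 in T-shNC, a log2 ratio of -0.13 with an interval from -0.17 to -0.09. Classes lay on both sides of this sum.

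**Figure D2:**
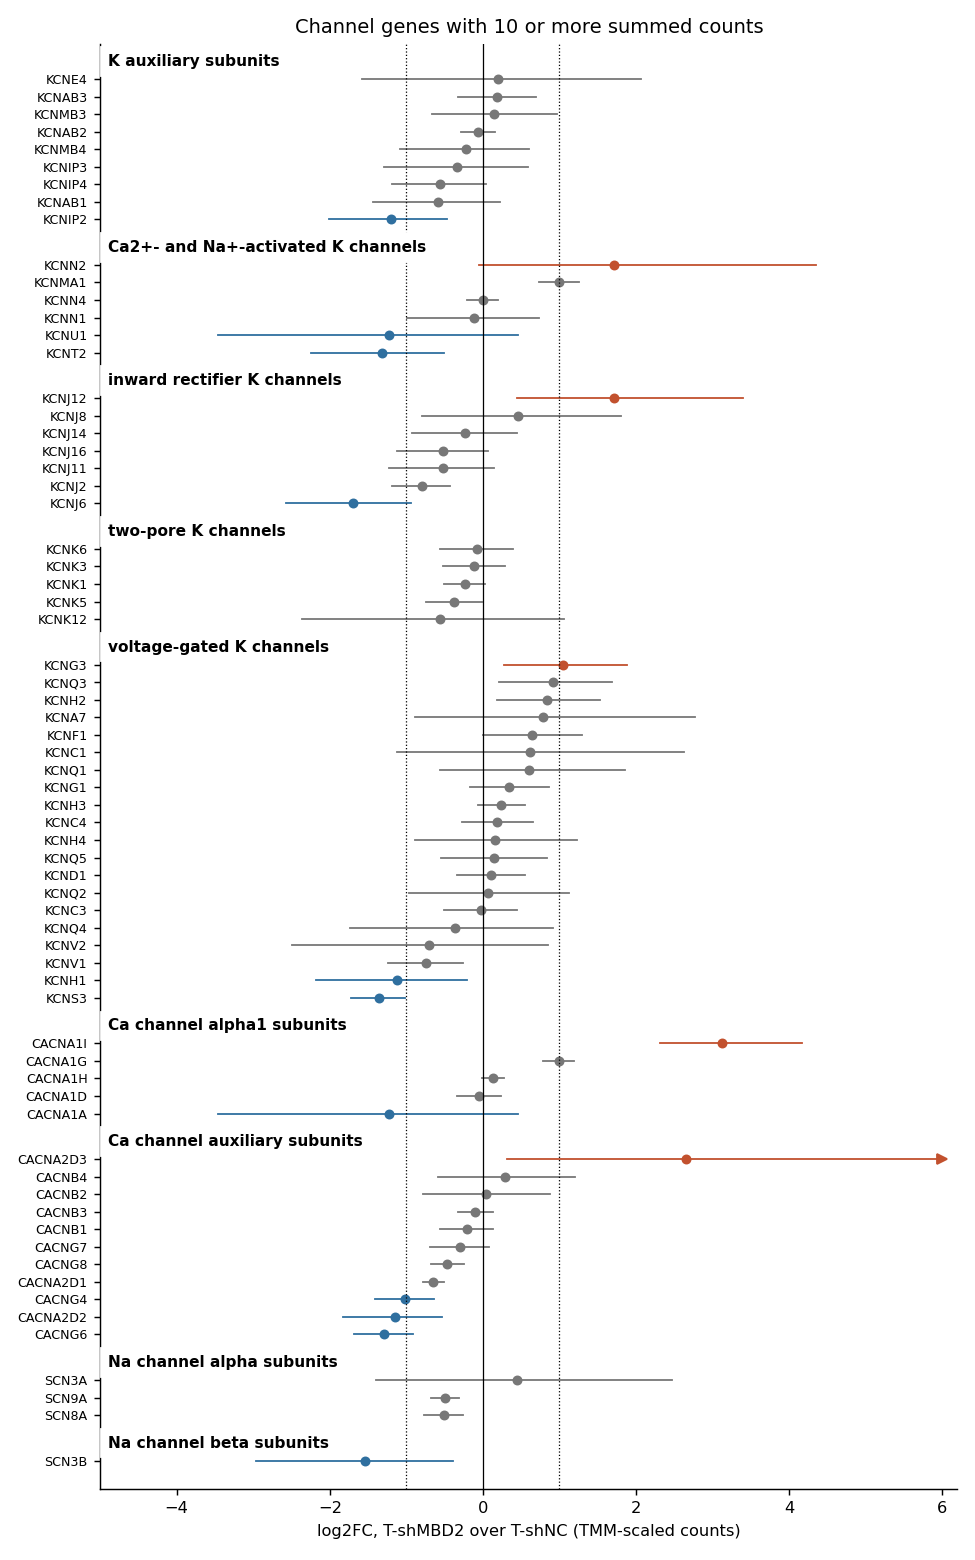
Log2FC (T-shMBD2 over T-shNC, TMM-scaled counts) of 67 of the 70 channel genes with at least 10 summed reads, by class. Points are log2FC, lines are exact 95% counting intervals, an arrow marks an interval that runs past the axis, and dotted lines stand at -1 and 1; the 5 genes above 1 are orange and the 11 below -1 are blue.

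The calcium channel alpha1 subunits, which form the pore, summed to 37.8 TPM in T-shMBD2 and 28.8 TPM in T-shNC. Their reads numbered 1769 and 1315, a log2 ratio of 0.42 (interval 0.32 to 0.52). Their median log2FC was 0.13 over 5 genes and -0.05 over all genes with at least 1 read. The excess was in the T-type genes, whose channels open at weak depolarisation. CACNA1I (Cav3.3) had 109 counts in T-shMBD2 and 12 in T-shNC, or 1.90 and 0.215 TPM, and its log2FC of 3.12 (interval 2.31 to 4.17) was the highest of the group. CACNA1G (Cav3.1) had 604 and 302 counts, or 13.5 and 6.90 TPM, with a log2FC of 0.99 (interval 0.79 to 1.20). CACNA1H (Cav3.2), the most abundant of the T-type genes, had 843 and 766 counts, or 18.2 and 17.0 TPM, and the interval of its log2FC, 0.13, ran from -0.01 to 0.27 and so includes 0. The 3 genes together had 33.6 TPM in T-shMBD2 and 24.1 TPM in T-shNC. CACNA1H made up 54.3% of T-type TPM in T-shMBD2 and 70.5% in T-shNC, CACNA1G 40.1% and 28.6%, and CACNA1I 5.66% and 0.891%. The make-up of the T-type transcripts thus differed between the libraries, although the gene with the largest ratio remained the least abundant.

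Other alpha1 genes showed no comparable excess. CACNA1D (Cav1.3), an L-type pore, had 205 and 211 counts, with an interval of its log2FC from -0.34 to 0.23. It overlaps CHDH on the opposite strand (250 and 189 counts). The L-type family as a whole had 207 and 219 counts, nearly all of them from CACNA1D, and CACNA1C, the main cardiac and smooth muscle pore, had 1 and 7. CACNA1A (Cav2.1), the P/Q-type pore of nerve terminals, had 4 counts in T-shMBD2 and 10 in T-shNC, with a log2FC of -1.23 (interval -3.46 to 0.46), so the direction was not resolved at this depth. CACNA1S, the skeletal muscle pore, had no reads.

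The auxiliary subunits of the calcium channels stood on the other side, with 62.0 TPM in T-shMBD2 and 95.03 TPM in T-shNC. Their 1820 and 2617 reads gave a log2 ratio of -0.53 (interval -0.62 to -0.45). The alpha2delta subunits carry the pore to the membrane, and some of them are bound by gabapentin. CACNA2D1 had 710 counts in T-shMBD2 and 1105 in T-shNC, the most reads of the auxiliary genes, and a log2FC of -0.65 (interval -0.79 to -0.51). CACNA2D2 had 31 and 69 counts and a log2FC of -1.15 (interval -1.82 to -0.53). CACNA2D3 went the other way with 9 counts in T-shMBD2 and 1 in T-shNC, a ratio of 6.30 with an interval from 1.24 to 392, so its size was not resolved. With 10 reads this gene stood just inside the minimum, while KCNE3 (8 and 1 counts) and KCNH8 (3 and 6 counts) stood just outside it with 9 reads each.

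All 4 gamma subunit genes with at least 10 reads were lower in T-shMBD2, and their 8 genes summed to 25.0 TPM against 45.6 TPM in T-shNC. CACNG6, a relative of the skeletal muscle gamma subunit, had 80 counts in T-shMBD2 and 195 in T-shNC, or 7.55 and 18.9 TPM, with a log2FC of -1.29 (interval -1.69 to -0.91). The other genes of the set belong to the TARP proteins, which are best known as partners of AMPA receptors. CACNG4 had 85 and 171 counts and a log2FC of -1.01 (interval -1.41 to -0.63). CACNG8 had 310 and 425 counts and a log2FC of -0.46 (interval -0.68 to -0.25). CACNG7 had 106 and 130 counts and a log2FC of -0.30, with an interval from -0.69 to 0.08 that includes 0. CACNG7, CACNG8 and CACNG6 are neighbours on chromosome 19, whereas CACNG4 lies on chromosome 17 beside CACNG5 (0 and 2 counts) and CACNG1 (no reads). Lower counts of gamma genes were therefore seen at both of these loci, but the neighbours of CACNG4 were too low for a ratio.

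**Figure D3:**
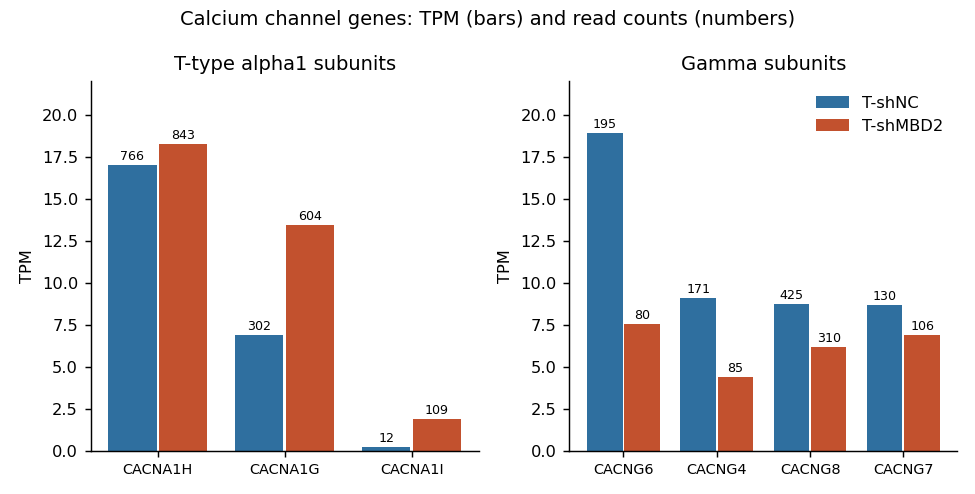
TPM (bars) of the T-type alpha1 genes (left) and of the gamma subunit genes with at least 10 reads (right) in T-shNC (blue) and T-shMBD2 (orange), with the read count above each bar. The 3 T-type genes are higher in T-shMBD2, CACNA1H only within its counting interval, and the 4 gamma genes are lower, CACNG7 only within its counting interval.

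The beta subunits, cytoplasmic partners that bring the alpha1 pore to the membrane, had 486 and 519 counts over 4 genes. CACNB3, the highest of them, had 299 counts in T-shMBD2 and 318 in T-shNC, or 12.98 and 14.16 TPM, with an interval of its log2FC from -0.33 to 0.13. CACNB1 had 134 and 154 counts, CACNB2 had 27 and 26 and CACNB4 had 26 and 21, and each of these intervals includes 0.

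Potassium channels activated by calcium or sodium had 828 counts in T-shMBD2 and 673 in T-shNC. KCNN4 (KCa3.1), the intermediate-conductance channel of epithelial and blood cells, had the highest level of all channel genes. It had 406 and 404 counts, or 31.7 and 32.4 TPM, and a log2FC of 0.00 with an interval from -0.20 to 0.20. KCNMA1 (BK), the large-conductance channel gated by voltage and calcium, had 364 counts in T-shMBD2 and 182 in T-shNC, or 5.59 and 2.87 TPM. Here the log2FC of 0.99 (interval 0.73 to 1.26) lay close to the value of CACNA1G. Excess reads of this class in T-shMBD2 came largely from KCNMA1.

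The remaining genes of this class had few reads. KCNT2, a sodium-activated channel, had 17 counts in T-shMBD2 and 43 in T-shNC and a log2FC of -1.32 (interval -2.25 to -0.51). KCNN2, a small-conductance channel, had 11 and 3 counts, a ratio of 3.27 with an interval from 0.963 to 20.3. KCNU1, a channel known from sperm, had 4 and 10 counts with a log2FC of -1.23 (interval -3.46 to 0.46). The directions of KCNN2 and KCNU1 were not resolved at this depth. KCNN1, another small-conductance channel, had 24 and 26 counts.

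Inward rectifiers, which pass potassium mainly near the resting potential, had 266 counts in T-shMBD2 and 393 in T-shNC, a log2 ratio of -0.57 (interval -0.80 to -0.34), and a median log2FC of -0.52 over 7 genes (-0.01 when all inward rectifiers with at least 1 read are taken). KCNJ2 (Kir2.1), a classical strong rectifier, had 94 and 163 counts, or 3.05 and 5.42 TPM, and a log2FC of -0.80 (interval -1.18 to -0.43). Its antisense gene KCNJ2-AS1 had 11 and 22 counts, and whether the counting used strand is not given in the sources used here. KCNJ6 (GIRK2), a channel opened by G proteins, had 18 counts in T-shMBD2 and 59 in T-shNC and the lowest log2FC of the group, -1.69 (interval -2.57 to -0.94). KCNJ12 (Kir2.2) had 21 and 6 counts and a log2FC of 1.72 (interval 0.44 to 3.40). This value is uncertain beyond its interval, because KCNJ12 has a near-identical copy, KCNJ18, which is not analysed here. KCNJ11 (Kir6.2), the pore of ATP-sensitive channels, had 32 and 46 counts, and KCNJ16 (Kir5.1), a neighbour of KCNJ2 on chromosome 17, had 42 and 60. KCNJ14 had 35 and 41 counts and shares its strand with GRWD1 (1544 and 1239 counts), and KCNJ8, another pore of ATP-sensitive channels, had 14 and 10. The intervals of the last 4 include 0.

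Two-pore channels carry background potassium current, and all 5 genes with at least 10 reads had a negative log2FC, between -0.56 and -0.08. KCNK1 (TWIK1) had 221 counts in T-shMBD2 and 259 in T-shNC, or 17.9 and 21.5 TPM. KCNK5 (TASK2), which epithelia use in bicarbonate transport and volume control, had 115 and 148 counts and a log2FC of -0.37 (interval -0.74 to -0.01). KCNK6 (TWIK2) had 75 and 79 counts, or 4.92 and 5.32 TPM, and KCNK3 (TASK1) had 101 and 109. Only the interval of KCNK5 left out 0 among these 5, while the class as a whole had 525 and 617 counts, a log2 ratio of -0.24 (interval -0.41 to -0.07). KCNK2 (TREK1), a mechanically gated channel, had 0 and 7 counts and fell below the minimum.

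Voltage-gated potassium channels formed the largest class, with 40 genes, 21 of them with at least 10 reads. The class had 1060 counts in T-shMBD2 and 1102 in T-shNC, and its log2 ratio of -0.06 had an interval from -0.19 to 0.06. Single genes lay on both sides. KCNS3 (Kv9.3), an electrically silent subunit that alters the current of other voltage-gated channels, had 94 counts in T-shMBD2 and 241 in T-shNC, or 6.86 and 18.0 TPM. Its log2FC of -1.36 (interval -1.73 to -1.02) was the lowest among channel genes with at least 100 reads, and its interval lay wholly below -1. A gene named SNORA40 is listed within KCNS3 on the opposite strand. Counts were looked up by name, so the 7 and 10 found for SNORA40 may belong to a copy elsewhere.

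The other silent subunits with at least 10 reads lay on both sides, 3 with a positive and 2 with a negative log2FC. KCNG3 (Kv6.3) had 44 counts in T-shMBD2 and 21 in T-shNC and a log2FC of 1.04 (interval 0.28 to 1.88). KCNF1 (Kv5.1) had 55 and 35 counts with a log2FC of 0.64 (interval 0.01 to 1.30). KCNG1 (Kv6.1) had 74 and 58 counts with an interval from -0.17 to 0.86. KCNV1 (Kv8.1) lay on the side of KCNS3, with 57 and 95 counts and a log2FC of -0.74 (interval -1.25 to -0.26). KCNV2 (Kv8.2) lay there too with 6 and 10 counts, though its interval, -2.49 to 0.86, includes 0. On the opposite strand KCNV2 overlaps KIAA0020 (1612 and 1340 counts). Summed over the 10 silent subunit genes, 339 and 467 counts gave a log2 ratio of -0.47 (interval -0.68 to -0.27), and without KCNS3 the other 9 genes had 245 and 226 counts (log2 ratio 0.11, interval -0.16 to 0.37).

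The ether-a-go-go channels also went both ways. KCNH1 (EAG1), known in several tumours, had 14 counts in T-shMBD2 and 31 in T-shNC and a log2FC of -1.13 (interval -2.18 to -0.20). KCNH2 (hERG), the repolarising channel of the heart, had 56 and 31 counts and a log2FC of 0.83 (interval 0.19 to 1.53). KCNH3, at 9.05 and 7.80 TPM the highest of the family, had 200 and 168 counts, an interval from -0.06 to 0.55, and an overlap with MCRS1 (700 and 703 counts). Of the KCNQ genes, which give slow, non-inactivating currents, 4 of 5 had a positive log2FC. KCNQ3 had 48 and 25 counts and a log2FC of 0.92 (interval 0.21 to 1.69), the only interval of the 5 without 0. KCNQ1, an epithelial and cardiac channel, had 17 and 11 counts, beside 141 and 142 for KCNQ1OT1, the RNA transcribed across it on the other strand. KCND1 (Kv4.1), an A-type channel, had 92 and 85 counts, or 3.63 and 3.44 TPM.

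Potassium channel auxiliary subunits had 576 and 635 counts, a log2 ratio of -0.15 with an interval from -0.31 to 0.02. KCNAB2, a cytoplasmic beta subunit of Shaker-type channels, had 331 counts in T-shMBD2 and 343 in T-shNC, or 13.5 and 14.4 TPM. KCNAB3, of the same family, had 72 and 63 counts, or 5.12 and 4.60 TPM. On the opposite strand KCNAB2 overlaps NPHP4 (198 and 229 counts). KCNIP2 and KCNIP4 encode calcium-binding partners of Kv4 channels. KCNIP2 had 22 and 51 counts and a log2FC of -1.20 (interval -2.01 to -0.47), with 3 and 6 counts for its antisense gene KCNIP2-AS1. KCNIP4 had 40 and 59 counts, or 2.82 and 4.27 TPM, with an interval from -1.19 to 0.03. It overlaps PACRGL on the opposite strand (249 and 259 counts).

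Sodium channel alpha subunits, which carry the fast inward current of excitable cells, had 684 counts in T-shMBD2 and 942 in T-shNC, a log2 ratio of -0.47 (interval -0.61 to -0.33). Nearly all reads came from a pair of genes. SCN9A (Nav1.7), the pore known from pain-sensing neurons, had 427 and 598 counts, or 7.63 and 11.0 TPM, and a log2FC of -0.49 (interval -0.68 to -0.31). SCN8A (Nav1.6), a pore of central neurons, had 214 and 304 counts, or 3.24 and 4.72 TPM, and a log2FC of -0.51 (interval -0.77 to -0.26). Both genes thus differed by a similar ratio, less than the line of -1. SCN1A and SCN7A, which lie within 500 kb of SCN9A or of each other on chromosome 2, had no reads.

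SCN3B, a beta subunit of sodium channels, which alters their gating, had 8 counts in T-shMBD2 and 24 in T-shNC. Its log2FC of -1.54 had a wide interval (-2.96 to -0.39) that nevertheless lay below 0.

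**Figure D4:**
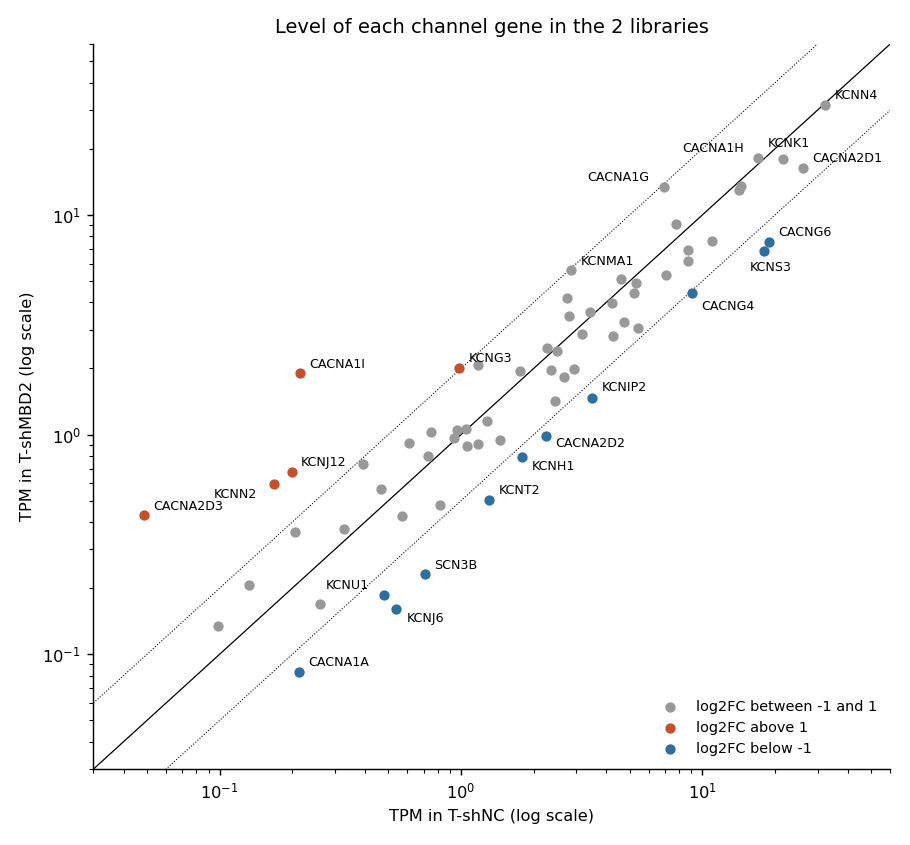
TPM in T-shMBD2 against TPM in T-shNC on log axes for 67 of the 70 channel genes with at least 10 summed reads. The solid line marks equal TPM and the dotted lines a ratio of 2 or its inverse; KCNN4 lies on the solid line at the top, and CACNA1I lies farthest above it among genes with at least 100 reads.

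Genes that work beside these channels were taken from 5 lists, whose counts past 1 and -1 stand beside the same backgrounds of 5.48% and 5.07% (13.4% and 13.7% at 10 to 99 reads). Of 40 other cation channel genes, 26 had at least 10 reads, 2 of them above 1 and 1 below -1, with a median log2FC of -0.10. TRPM6, a magnesium channel, had 86 counts in T-shMBD2 and 23 in T-shNC and a log2FC of 1.87 (interval 1.22 to 2.63). HCN4, a pacemaker channel, had 26 and 10 counts with a log2FC of 1.33 (interval 0.27 to 2.59). SCNN1B, a subunit of the epithelial sodium channel, had 4 and 29 counts with a log2FC of -2.72 (interval -4.84 to -1.36). By TPM the highest of this list were TRPM7 (52.2 and 49.3 TPM) and the endolysosomal channel TPCN1 (44.2 and 44.5 TPM).

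Of 27 genes of store-operated and intracellular calcium handling, 24 had at least 10 reads, none was above 1, and 1 was below -1. That gene was SLC8A2, a sodium-calcium exchanger, with 5 and 13 counts and an interval from -3.23 to 0.19. The list's median log2FC was 0.02, and its highest genes were CALM2, encoding calmodulin, at 342 and 363 TPM, and ATP2A2, the calcium pump of the endoplasmic reticulum, at 305 and 311 TPM. Of 24 genes of the sodium pump and cation-chloride transport, 15 had at least 10 reads, 0 were past either line and the median was -0.09. Among those with at least 100 reads, SLC12A2 had the lowest log2FC and SLC12A7 the highest. SLC12A2 had 3458 counts in T-shMBD2 and 5996 in T-shNC (log2FC -0.80, interval -0.86 to -0.74). SLC12A7 had 1222 and 664 (log2FC 0.87, interval 0.73 to 1.01). ATP1B1, a pump subunit, had 283 and 333 TPM, and ATP1B3 had 136 and 133 TPM. These lists hold genes read far more deeply than most channel genes.

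Of 20 chloride channel genes, 15 had at least 10 reads and the median log2FC was 0.01. BEST1, a calcium-activated chloride channel, was above 1 with 28 counts in T-shMBD2 and 11 in T-shNC (log2FC 1.30, interval 0.29 to 2.49), and 0 were below -1. CLIC1 and CLIC4, intracellular chloride channel proteins, were the highest, CLIC1 at 288 and 314 TPM and CLIC4 at 107 and 70.9 TPM. Of 24 regulators and binding partners of channels, 15 had at least 10 reads, 3 were above 1 and 1 was below -1, with a median of 0.24. RRAD, a small GTPase that inhibits high-voltage calcium channels, had 31 and 5 counts with a log2FC of 2.51 (interval 1.25 to 4.34). Its relative GEM had 48 and 83 counts, with a log2FC of -0.79 (interval -1.34 to -0.27). FGF12, which binds sodium channel tails, had 67 and 24 counts with a log2FC of 1.45 (interval 0.78 to 2.21), and its relative FGF11 had 9 and 4 (interval -0.68 to 3.31). ABCC9, the regulatory subunit of some ATP-sensitive potassium channels, had 4 and 12 counts, with a log2FC of -1.48 (interval -3.68 to 0.13). NEDD4L, a ubiquitin ligase of sodium channels, was the highest of the list with 1041 and 1319 counts.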

How the data were processed

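RNA-seq of 1 T-shMBD2 and 1 T-shNC library was used, and groups were taken from the sample titles. The authors deposited unnormalized counts of reads for every gene, beside a TPM table. The deposited TPM are treated as a score, because repeated rows lift their column sums too high, and they sum to 1000000 in each library once 1 row per gene is kept. The submitters' processing notes name fastp, HISAT2 2.1.0, featureCounts, DESeq 1.18.1 and GRCh38.p13; strandedness is not given in the sources used here. Gene ends in the tables run past those of GRCh38.p14 on chromosome 1, so no coordinate of the tables is printed.

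Of 63677 rows with an Ensembl identifier, 56638 genes were kept. TMM factors came from edgeR 4.0.16 in R 4.3.3. Log2FC used a prior count of 0.5, scaled to each library, and was limited to genes whose counts summed to 10 or more. Clopper-Pearson intervals came from scipy 1.17.1. Pairwise overlaps between genes were taken from the tables' own positions, with neighbours defined as lying within 500 kb. Overlaps are written out for some genes only, and counts of the overlapping genes were looked up by name. The scripts were tested on simulated counts.

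Members and lists were chosen with earlier results of these data known. Named genes were members past 1 or -1, the 3 with the highest mean TPM of each class, the extremes among genes with at least 100 counts, genes at the 10-count limit, list genes past 1 or -1 and the 2 highest of each list. A few genes, with the sums that rest on them, are not reported here. All others were named after their values were seen, to complete a family or to show what lay behind a list's sum or median. The alternatives were DESeq2 1.42.0 size factors, total counts, a prior of 2, minimums of 1 and 100 counts, and log2 of TPM plus 0.1 or 1.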

Additional observations from a re-analysis of the deposited data

How the results depend on the processing

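No paired analysis was possible because each group has 1 library. The number of channel genes above 1, 5 in the report, was 18 with a minimum of 1 count, 1 with a minimum of 100 counts and 1 on log2 of TPM plus 1. The number below -1, 11 in the report, was 20, 4 and 2 under the same settings. With a minimum of 1 count these are 17.0% and 18.9% of the channel genes, near the 16.6% and 15.8% of all genes. With a minimum of 100 counts they are 3.13% and 12.5%, beside 1.78% and 1.06%. On log2 of TPM plus 1 they are 1.43% and 2.86%, beside 2.13% and 1.94%, so the excess below -1 is then small. With a minimum of 100 counts fewer genes enter, and depth is not matched above that minimum. The median log2FC of the calcium channel alpha1 subunits, 0.13 in the report, was 0.56 with a minimum of 100 counts and turned to -0.05 with a minimum of 1 count. With a minimum of 1 count, the median of the inward rectifiers went from -0.52 to -0.01, that of the sodium channel alpha subunits from -0.36 to -0.01 and that of the calcium- and sodium-activated potassium channels from -0.06 to -0.43. With a minimum of 100 counts, the latter turned to 0.49 and that of the potassium channel auxiliary subunits went from -0.23 to 0.06. Of the 16 genes past 1 or -1, all 16 kept their sign under DESeq2 size factors, total counts, a prior of 2 and both TPM settings. With a prior of 2, 15 stayed past the line (not KCNG3), with TPM plus 0.1, 14 did (not CACNA1A or KCNG3), and with TPM plus 1, 3 did (CACNA1I, CACNG6 and KCNS3). On log2 of TPM plus 1, which shrinks low genes by construction, CACNA1I was at 1.26 and KCNJ6 at -0.41. Depth limits the genes under 100 counts most, and without replicates the spread between cultures is unknown.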
